A study of Mus musculus with 8 samples.

Results

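Levels of 10 long noncoding RNAs were followed in the mouse heart. Of these, 6 are host genes of small nucleolar RNAs (snoRNAs), namely Gas5, Snhg1, Snhg8, Snhg12, Epb41l4aos and Zfas1. The other 4, Malat1, Neat1, Meg3 and H19, are long noncoding RNAs (lncRNAs) often studied in heart. They were taken by name, with Ensembl identifiers matched to GENCODE M21 symbols, so all 10 were found among the 55471 genes counted, and all 10 passed the low-count filter that left 15084 genes for testing.

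RNA was sequenced from a piece of heart of 14-week-old mice, 4 WT and 4 TAZG197V. TAZG197V mice carry a CRISPR/Cas9 knock-in at the X-linked Taz gene, which encodes Tafazzin, the enzyme that remodels the mitochondrial lipid cardiolipin. The change replaces glycine 197 by valine, as in a patient with Barth syndrome, and the study used hemizygous males. C57BL/6N zygotes were edited and founders were crossed to C57BL6/J, the change is in the germline and so in every cell type of the heart, and neither group was treated. Which chamber the piece came from is not given in the sources used here.

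A snoRNA host gene is transcribed as a long precursor, the introns of which hold snoRNAs. After splicing, each intron is trimmed to the mature snoRNA, which guides the chemical modification of ribosomal and other RNAs. Box C/D snoRNAs guide methylation and box H/ACA snoRNAs guide pseudouridylation. The spliced exons of noncoding hosts are often short-lived, since ribosomes read short frames in them and nonsense-mediated decay then removes them. Malat1 and Neat1 remain in the nucleus, in speckles and paraspeckles respectively, whereas Meg3 and H19 are expressed from the maternal chromosome of imprinted regions.

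According to the annotation, the 6 hosts held 28 snoRNA entries of 60 to 137 bases at 26 distinct positions, since Snord80 in Gas5 and Snora16a in Snhg12 are each entered 2 times at nested positions. Of these, 9 positions were in Gas5, 8 in Snhg1, 4 in Snhg12, 3 in Zfas1, and 1 each in Snhg8 and Epb41l4aos. To show what the introns of these hosts carry, a snoRNA from each of 5 hosts is given 5′ to 3′ from GENCODE M21 (GRCm38). Capitals mark TGATGA (box C) and CTGA (box D) in the box C/D snoRNAs and ACA near the 3′ end in the H/ACA snoRNAs. Snord47 lies in Gas5 at chr1:161038082-161038158 (+), Snord22 in Snhg1 at chr19:8725866-8725991 (+), and Snora24 in Snhg8 at chr3:123507937-123508066 (-). Snora61 lies in Snhg12 at chr4:132310240-132310369 (+) and Snord12 in Zfas1 at chr2:167065276-167065365 (+).
Snord47: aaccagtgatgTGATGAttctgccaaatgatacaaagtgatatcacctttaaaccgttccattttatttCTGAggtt
Snord22: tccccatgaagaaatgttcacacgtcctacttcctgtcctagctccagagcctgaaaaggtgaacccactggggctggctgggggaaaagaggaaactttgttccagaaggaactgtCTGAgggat
Snora24: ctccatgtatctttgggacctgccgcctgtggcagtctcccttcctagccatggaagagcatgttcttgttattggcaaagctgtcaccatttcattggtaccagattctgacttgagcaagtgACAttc
Snora61: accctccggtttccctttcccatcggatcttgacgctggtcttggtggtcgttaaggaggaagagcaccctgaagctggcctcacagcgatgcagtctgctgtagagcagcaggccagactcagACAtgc
Snord12: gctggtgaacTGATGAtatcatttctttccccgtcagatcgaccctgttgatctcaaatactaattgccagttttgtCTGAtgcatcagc
The exact letters TGATGA were not found in the first 25 bases of Snord22.

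None of these snoRNAs was itself measured. Of the 28 snoRNA entries, 26 had 0 counts in every library, and the other 2, Gm23201 in Zfas1 and Gm23639 in Epb41l4aos, had at most 7. For 27 of the 28 entries the annotation also holds a host transcript that keeps the intron, so that the snoRNA lies within an annotated host exon. The values below are therefore levels of host RNA, spliced or not, and say nothing of the amount of mature snoRNA.

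The start sites of the hosts are shown next, because many genes of the translation machinery and several snoRNA hosts are known to begin with a C followed by a run of pyrimidines, the 5′ terminal oligopyrimidine tract. Each line runs from 30 bases before to 20 bases from the RefSeq start (GRCm38.p6), and capitals mark a C followed by at least 4 further C or T on the sense strand, beginning within 5 bases of the start. The windows are chr1:161035136-161035185 (+) for the second of 2 Gas5 starts, chr3:123508317-123508366 (-) for Snhg8, chr4:132308648-132308697 (+) for Snhg12, chr19:8723457-8723506 (+) for Snhg1 and chr2:167062904-167062953 (+) for Zfas1.
Gas5: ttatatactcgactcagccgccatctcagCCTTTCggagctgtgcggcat
Snhg8: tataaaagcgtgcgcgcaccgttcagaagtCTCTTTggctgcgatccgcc
Snhg12: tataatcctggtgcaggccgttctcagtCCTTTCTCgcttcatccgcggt
Snhg1: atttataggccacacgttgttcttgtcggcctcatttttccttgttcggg
Zfas1: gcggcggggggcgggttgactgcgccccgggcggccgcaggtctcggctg
Of the 9 RefSeq promoters of members, 4 held such a tract, namely the second Gas5 start, Snhg8, Snhg12 and a start of Meg3, as did 16.1% of 32851 mouse promoters. The letters TGATGNAA and CACGTG, searched on both strands of the 300-base windows, were in none of the 9 and in 3.97% and 7.15% of all promoters, respectively. No promoter is printed for Epb41l4aos, Neat1 and H19.

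As a check of the labels, Taz was 63.8, 58.7, 61.9 and 59.3 CPM (counts scaled to library size and composition) in WT 1 to WT 4. It was 48.0, 50.4, 46.3 and 44.3 CPM in TAZG197V 1 to 4. The groups did not overlap, and the fit gave a log2 fold change of -0.37 (standard error, SE, 0.06) and an adjusted p of 0.00124 (edgeR quasi-likelihood test, Benjamini-Hochberg over all genes tested). The knock-in changes a base and does not remove the transcript. Libraries held 23055689 to 36301031 counts. Cardiomyocyte markers were abundant in all 8, with a summed level of 45493 to 60976 CPM over 6 genes. Several libraries stood apart. WT 4 held red cell markers at 55072 CPM against 227 to 1065 CPM in the other 7, and both WT 4 and TAZG197V 4 held neural markers at 181 and 299 CPM against 38.5 to 78.9 CPM elsewhere. WT 2 held more of the fibroblast markers than any other library, 1463 CPM against at most 934 CPM. Between genotypes, 3 of 6 cardiomyocyte, 3 of 5 fibroblast, 2 of 5 endothelial and 3 of 5 mural cell markers were called lower and 1 mural cell marker, Acta2, higher, whereas 0 of 5 macrophage markers were called, against 18.5% higher and 15.1% lower over all genes tested. Without both number 4 libraries, 0 of 6 cardiomyocyte, 1 of 5 fibroblast, 3 of 5 endothelial and 2 of 5 mural cell markers were called lower, against 7.98% of all genes, while the median log2 fold change of the cardiomyocyte markers was -0.31 there and -0.30 with all 8 libraries. The part of these shifts in the values below was not tested. In bulk tissue, fewer cells of a type and less RNA per cell cannot be told apart.

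To define which of the 10 RNAs differed between genotypes, all genes were fitted together with 2 surrogate variables. A gene was called when its adjusted p was below 0.05, its log2 fold change beyond 0.20 in either direction and its mean count at least 50. Of all genes tested, 33.5% were called, 18.5% higher in TAZG197V and 15.1% lower. Calls among the 10 members numbered 6 higher, namely 5 of the 6 snoRNA hosts and Neat1, and 0 lower. At an unadjusted p below 0.05, edgeR gave 0 lower as well and added Snhg8 to those higher. DESeq2 called 4 members higher and 0 lower, against 16.2% and 15.2% of all genes. In 5 of the 6 hosts every TAZG197V library lay above every WT library, which was so for 19.3% of all genes tested. Over the 1065 lncRNA genes tested, 5.07% were called higher and 9.67% lower, and over the 378 of these with a mean count of at least 50 the shares were 14.3% and 27.2%.

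**Figure D1:**
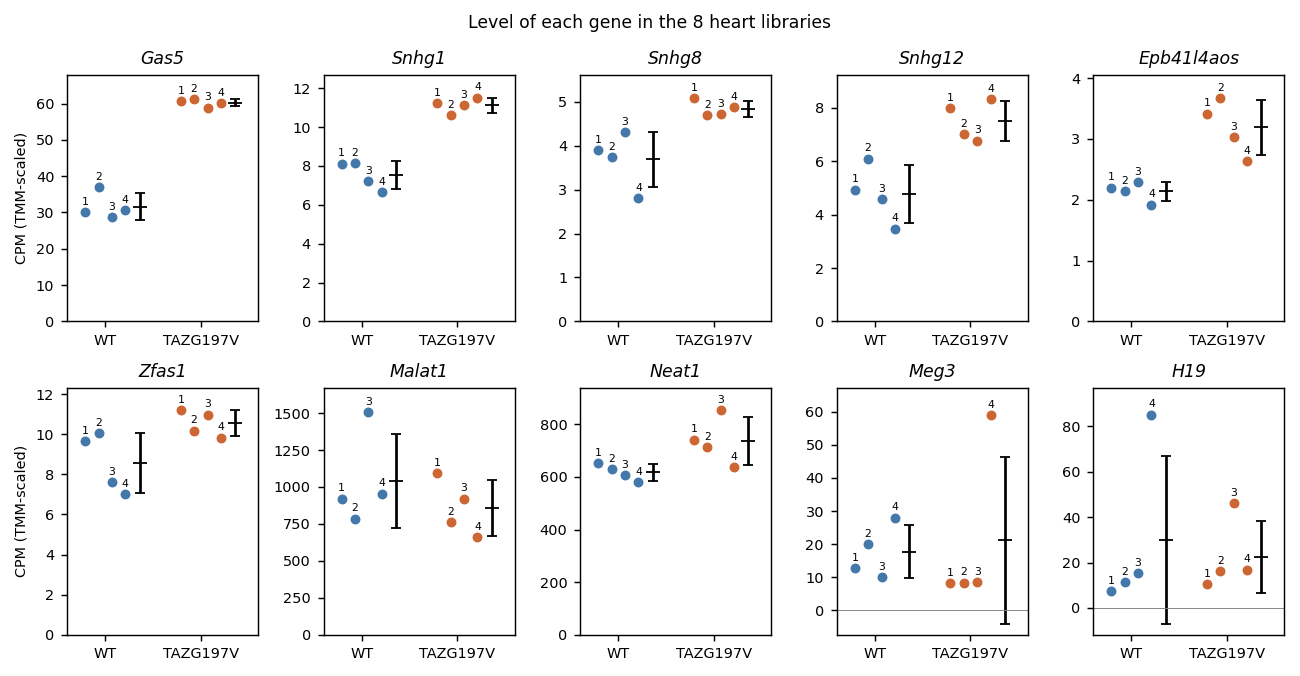
Level of the 10 RNAs in each library, in CPM on linear axes. Points are single mice, numbered as in the labels, and the bar beside each group gives the mean and SD (n = 4). In Gas5 the 4 TAZG197V points lie between 58.9 and 61.2 CPM, all above the WT points, whereas Meg3 in TAZG197V 4, at 59.0 CPM, and H19 in WT 4, at 85.2 CPM, lie far from the rest of their group.

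Gas5, a host of box C/D snoRNAs whose spliced RNA is known to accumulate in growth-arrested cells, showed the largest difference among the members. It was at 30.2, 37.1, 28.7 and 30.7 CPM in WT 1 to 4 and at 60.7, 61.2, 58.9 and 60.2 CPM in TAZG197V 1 to 4. The groups lay far apart, and the highest and lowest TAZG197V hearts differed by 2.37 CPM. The WT mean was 31.6 ± 3.72 CPM against 60.3 ± 1.02 CPM for TAZG197V (SD, n = 4), a log2 fold change of 0.97 (SE 0.06, adjusted p = 2.0e-05, edgeR). Within sequencing lane 7, which held libraries 1 and 2 of each genotype, it was 0.86, and within lane 8, which held libraries 3 and 4, it was 1.00. In lane 8 alone, with 4 libraries and 45 genes called in all, no member was called. Gas5 was annotated at chr1:161034422-161038539 (+), and its counts ran from 687 to 2269.

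Snhg1, the host of 8 snoRNAs at chr19:8723475-8726443 (+), was at 8.12, 8.13, 7.22 and 6.65 CPM in WT and at 11.2, 10.6, 11.1 and 11.5 CPM in TAZG197V. Each TAZG197V heart was above each WT heart. The log2 fold change was 0.59 (SE 0.09, adjusted p = 0.00121, edgeR), with 0.43 in lane 7 and 0.70 in lane 8.

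Snhg12, which carries both kinds of snoRNA at chr4:132308623-132311024 (+), was at 4.94, 6.10, 4.58 and 3.48 CPM in WT and at 7.99, 7.02, 6.78 and 8.32 CPM in TAZG197V. The groups did not overlap, although WT 2 and TAZG197V 3 were close. The fitted log2 fold change was 0.75 (SE 0.12, adjusted p = 0.00156, edgeR). The difference was 0.44 in lane 7 and 0.90 in lane 8, and in neither lane alone was it called.

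Epb41l4aos, a short host transcribed from the strand opposite to Epb41l4a at chr18:33794892-33795986 (+), had the fewest counts of the 10, 43 to 136. At 43 counts, counting error alone is 15.2% of the value. It was at 2.199, 2.14, 2.29 and 1.92 CPM in WT and at 3.42, 3.67, 3.03 and 2.64 CPM in TAZG197V. The groups did not overlap, and TAZG197V 4 came nearest to WT. The log2 fold change was 0.57 (SE 0.14, adjusted p = 0.0147, edgeR). This call was near the threshold: the adjusted p was 0.0534 without WT 1, 0.0543 without TAZG197V 1 and 0.0661 without TAZG197V 2, and 0.163 without both number 4 libraries. DESeq2 gave an adjusted p of 0.0597.

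Zfas1 starts beside the Znfx1 gene on the other strand, at chr2:167062934-167065862 (+), and holds Snord12 and 2 further snoRNAs. It was at 9.64, 10.1, 7.61 and 7.01 CPM in WT and at 11.2, 10.2, 11.0 and 9.83 CPM in TAZG197V. The groups overlapped, since TAZG197V 4 lay below WT 2. It was called with a log2 fold change of 0.36 (SE 0.10, adjusted p = 0.0201, edgeR), the smallest of the called hosts. The difference was 0.12 in lane 7 and 0.51 in lane 8, and the call was lost without WT 3, WT 4 or TAZG197V 1, where the adjusted p was 0.0849, 0.0993 and 0.0603. It was not called by DESeq2 (adjusted p = 0.0522), nor by edgeR without surrogate variables, with 1 surrogate variable, with lane as a covariate or without the low-count filter, where the adjusted p was 0.116, 0.0829, 0.0645 and 0.138.

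Snhg8, the host of Snora24 at chr3:123507552-123508404 (-), was the host that was not called. It was at 3.89, 3.74, 4.31 and 2.81 CPM in WT and at 5.09, 4.70, 4.71 and 4.88 CPM in TAZG197V. Although no TAZG197V value fell to the WT range, the log2 fold change of 0.42 (SE 0.15, 95% interval 0.08 to 0.75) had an adjusted p of 0.0526 in edgeR. It was called in 3 of 21 alternative fits, all with edgeR. These were without WT 2, without WT 3 and without haemoglobin genes, with an adjusted p of 0.0313, 0.0364 and 0.0467. Without WT 4 its log2 fold change was 0.27 and without both number 4 libraries 0.16.

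The same question was put to the other noncoding snoRNA hosts. Of 15 listed, 13 were matched and 11 tested, of which 5 were called higher and 0 lower, against 18.5% and 15.1% of all genes, with a median log2 fold change of 0.45 against -0.01 over all genes tested. Snhg15 was at 1.76, 1.40, 1.63 and 1.205 CPM in WT and at 5.16, 5.40, 6.00 and 2.97 CPM in TAZG197V. That gave it the largest change of all hosts on either list, a log2 fold change of 1.65 (SE 0.14, adjusted p = 9.4e-05, edgeR). Dancr, Snhg16, Snhg6 and Snhg5 were also called, with log2 fold changes of 0.77, 0.74, 0.69 and 0.47. Snhg18 had a log2 fold change of 0.45 (adjusted p = 0.0528) and was not called. Snhg10, Snhg11, Snhg14, Snhg17 and Snhg20 had log2 fold changes of -0.49, -0.31, 0.00, 0.01 and -0.10 and were not called either. Snhg10 and Snhg11, with mean counts of 11.5 and 27.98, were below the minimum of 50 and could not be called at any p. The annotation types Snhg11 as protein-coding, although it was listed here among the noncoding hosts. About 18.1% of the 50-base windows of Snhg16 and 10.4% of those of Snhg5 also occur in other annotated genes, so their values are uncertain. The same holds for the members Zfas1, Snhg12 and Meg3, at 13.0%, 10.6% and 10.4%. These shares include annotated entries that overlap the member, such as the snoRNAs of Snhg12. Without surrogate variables, 2 of the 11 and 4 of the 6 member hosts were called higher, against 16% of all genes, with medians of 0.40 and 0.57. Without both number 4 libraries, 2 of the 11 and 3 of the 6 were called higher, against 9.41% of all genes, with medians of 0.42 and 0.58, close to the 0.45 and 0.58 with all 8.

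**Figure D2:**
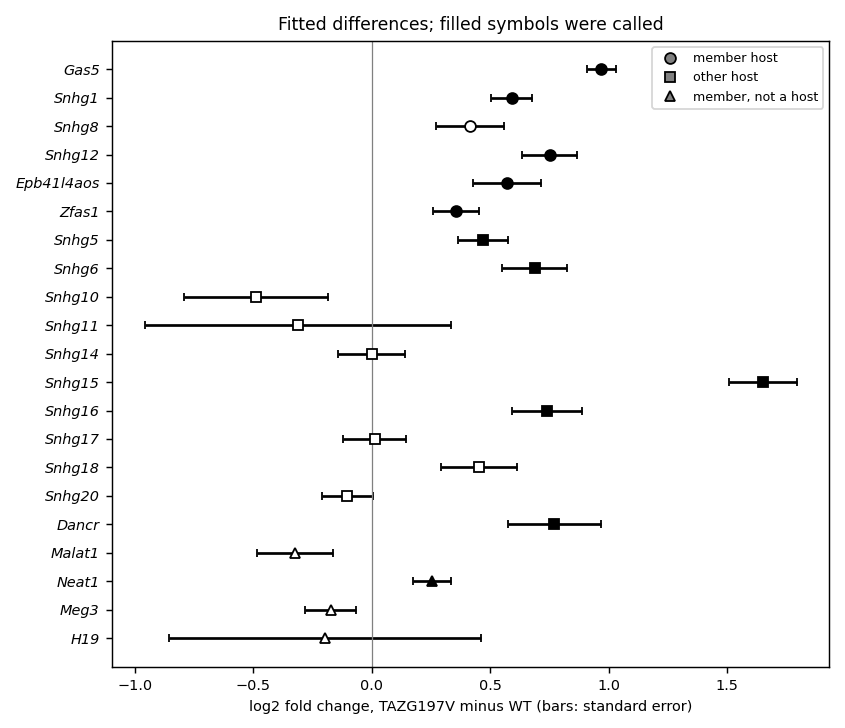
Fitted log2 fold change (TAZG197V minus WT) with its standard error for the 10 members and 11 other snoRNA hosts listed as noncoding that reached testing, of which the annotation types Snhg11 as protein-coding. Filled symbols were called, and the called hosts all lie to the right of 0, with Snhg15 at 1.65 and Gas5 at 0.97.

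Most snoRNAs lie in introns of protein-coding genes, many of which make ribosomal, nucleolar or translation proteins. Of 21 such hosts listed, 19 were called higher and 0 lower, against 18.5% and 15.1% of all genes, with a median log2 fold change of 0.61. The annotation types Cct6a, which was called higher, as a processed transcript, although it was listed here among the protein-coding hosts. Gnl3, which encodes the nucleolar protein nucleostemin, was at 18.97 to 23.2 CPM in WT and at 38.2 to 50.2 CPM in TAZG197V, a fitted fold change of 2.21 (SE 0.06 on the log2 scale, adjusted p = 7.0e-06, edgeR). The ribosomal protein genes Rpsa, Rpl13a and Rpl4 had log2 fold changes of 1.05, 1.02 and 0.87. These 3 values are uncertain, because 28.8%, 24.0% and 15.2% of their 50-base windows also occur in other annotated genes. Eif4a2 and Rnf149 were not called, at -0.08 and 0.38, and share 13.6% and 22.6% of their windows in the same way. The share was also high in other called hosts, for example 39.4% in Hspa8 and 37.9% in Rpl7a.

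Mature snoRNAs work in particles with a fixed set of proteins. Of 17 genes for these proteins and their assembly factors, 14 were called higher and 0 lower, against 18.5% and 15.1% of all genes, with a median log2 fold change of 0.48. Nhp2, a core protein of H/ACA particles, was at 10.1, 9.10, 11.0 and 8.84 CPM in WT and at 33.7, 36.4, 30.4 and 26.6 CPM in TAZG197V. The fit gave a log2 fold change of 1.69 (SE 0.08, adjusted p = 4.3e-06, edgeR). Shq1, an H/ACA assembly factor, and Nop58 and Fbl, both core proteins of C/D particles, followed with 0.93, 0.77 and 0.67, the last uncertain because 19.7% of the windows of Fbl occur in other genes. Ruvbl1 and Nop56, which were also called higher, share 49.4% and 18.6% of their windows in the same way. Nop56, Nop58 and Dkc1 are on this list and also on that of the protein-coding hosts. Without both number 4 libraries, 5 of the 17 were called higher, against 9.41% of all genes, with a median of 0.38.

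The spliced RNA of several noncoding hosts is known to be removed by nonsense-mediated decay, so its factors were listed. Of 19 genes, 2 were called higher and 1 lower, against 18.5% and 15.1% of all genes, with a median log2 fold change of -0.01. Upf2, a core factor, was at 37.2 to 40.1 CPM in WT and at 27.8 to 31.5 CPM in TAZG197V, a log2 fold change of -0.39 (SE 0.05, adjusted p = 0.000864, edgeR). Rnps1 and Rbm8a, which bind near exon junctions, had 0.34 and 0.22. The decay of the hosts was not measured.

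Several hosts start close to a protein-coding gene on the opposite strand. The annotated starts of Snhg1 and Slc3a2 are 106 bases apart, those of Gas5 and Zbtb37 427 bases, and those of Zfas1 and Znfx1 81 bases. Slc3a2, which encodes the heavy chain of amino acid transporters at the cell surface, was at 32.9, 37.5, 31.4 and 32.2 CPM in WT and at 117, 107, 115 and 114 CPM in TAZG197V. Both genes of the pair were thus higher, Slc3a2 with a log2 fold change of 1.78 (SE 0.06, adjusted p = 4.8e-07, edgeR) and Snhg1 with 0.59. The partners of the other hosts were not called: Zbtb37 had a log2 fold change of -0.19 (SE 0.13, adjusted p = 0.278) and Znfx1 of -0.05 (SE 0.05, adjusted p = 0.471). Zfas1 and Znfx1 share 82 exon bases on opposite strands, and the strand setting of the counting is not given in the sources used here, so reads there cannot be assigned to either.

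**Figure D3:**
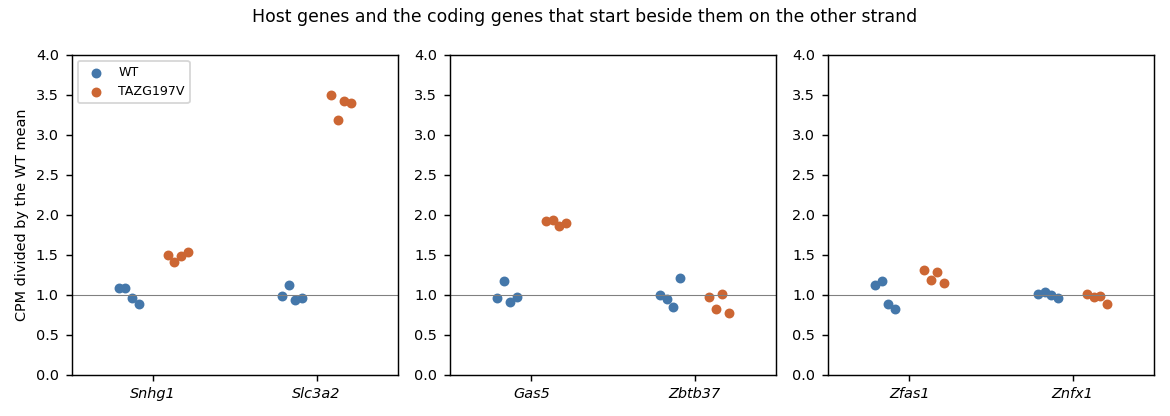
CPM of each library divided by the WT mean of the gene, on a linear axis from 0, for 3 hosts and the coding genes that start beside them. Slc3a2 rises with Snhg1, to 3.38 times the WT mean, whereas the TAZG197V points of Zbtb37 and Znfx1 overlap those of WT.

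Turning to the nuclear RNAs, Malat1 at chr19:5795690-5802672 (-) was the most abundant member. It was at 921, 787, 1505 and 955 CPM in WT and at 1094, 763, 921 and 659 CPM in TAZG197V. WT 3 was far above the other hearts and the groups overlapped. The log2 fold change of -0.32 (SE 0.16, 95% interval -0.69 to 0.05, adjusted p = 0.147, edgeR) was not called. It was -0.15 without WT 3 and 0.12 in lane 7 alone, and it was called only without both number 4 libraries, at -0.70 with an adjusted p of 0.0295. WT 3 also held the most endothelial marker RNA, 924 CPM against 525 to 684 CPM in the other 7 libraries over 5 markers, and its part in the Malat1 value was not tested.

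Neat1, the scaffold of paraspeckles at chr19:5824708-5845478 (-), was at 653, 629, 607 and 579 CPM in WT and at 741, 713, 855 and 637 CPM in TAZG197V. The groups overlapped only because TAZG197V 4 lay below WT 1. It was called, with a log2 fold change of 0.25 (SE 0.08, adjusted p = 0.0346, edgeR). The difference was 0.18 in lane 7 and 0.33 in lane 8, and the adjusted p was 0.0532 to 0.0861 in each of 6 fits without 1 library, so that among these 8 fits it was called only without TAZG197V 2 or TAZG197V 4. Without surrogate variables or with lane as a covariate the adjusted p was 0.0625 and 0.0787, and without both number 4 libraries it was 0.0923. Malat1 and Neat1 lie side by side on chromosome 19, and the fitted values had opposite signs, a difference between the RNAs that was not tested.

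Among 11 paraspeckle protein genes, 3 were called higher and 1 lower, close to the 33.5% called in either direction over all genes. Pspc1, Nono and Hnrnpk had log2 fold changes of 0.38, 0.30 and 0.21, and Rbm14 had -0.34. Pspc1 and Nono encode partner proteins that bind Neat1. Among 10 nuclear speckle genes, 0 were called higher and 2 lower, against 18.5% and 15.1% of all genes. These were the splicing factor genes Srsf3 and Srrm1, at -0.28 and -0.23. The median log2 fold change was -0.03 for the first list and -0.12 for the second.

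Meg3 comes from the maternal chromosome of the Dlk1-Dio3 region, at chr12:109541001-109571726 (+). It was at 12.8, 19.95, 10.1 and 27.99 CPM in WT and at 8.36, 8.39, 8.65 and 59.0 CPM in TAZG197V. In 3 of the 4 TAZG197V hearts Meg3 lay below every WT heart, and in TAZG197V 4 it was above all. The log2 fold change was -0.17 (SE 0.11, adjusted p = 0.234, edgeR) and was not called. Without TAZG197V 4 it was -0.81 and was called lower (adjusted p = 0.00449), whereas without both number 4 libraries it was -0.26 and was not called (adjusted p = 0.206). In lane 7 alone it was -0.97 and was called (adjusted p = 0.00755), and in lane 8 alone it was 0.81. With all 8 libraries but no low-count filter it was -0.54 and was also called lower (adjusted p = 0.0125), and without surrogate variables it was 0.25.

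Rian and Mirg, noncoding RNAs of the same region, had a similar profile. Rian was at 8.42, 12.8, 6.52 and 10.1 CPM in WT and at 4.83, 5.13, 6.62 and 19.1 CPM in TAZG197V. Rian was not called (log2 fold change -0.17). Mirg, at -0.71 with an unadjusted p of 0.0518 (edgeR), had a mean count of 14.5, below the minimum of 50, and could not be called. Dlk1, Rtl1 and Dio3 did not reach testing. TAZG197V 4 was highest for Meg3, Rian, Mirg and the summed neural markers, and within WT, Meg3 and the neural sum were highest in WT 4, whereas Rian and Mirg were highest in WT 2. The 6 neural markers together were at 69.3 to 181 CPM in WT and 38.5 to 299 CPM in TAZG197V. Of the 6, Snap25, Nnat, Slc1a2 and Syt1 were highest in TAZG197V 4, at 21.7, 73.2, 78.96 and 32.9 CPM, and next in WT 4, at 8.04, 30.7, 30.8 and 10.8 CPM, against at most 3.93 CPM in any other library. Mbp was at 3.19 CPM in TAZG197V 4 and 10.6 CPM in WT 4, and Camk2a at 89.5 and 90.4 CPM. None of the 6 was at 0 in all libraries. Of the 5 that were tested, all but Snap25, 1 was called higher, Slc1a2, and 2 lower, Mbp and Camk2a, against 18.5% and 15.1% of all genes, and their part in the Meg3 values was not tested.

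H19, transcribed from the maternal chromosome beside Igf2 at chr7:142575529-142578143 (-), had the largest SE of the members. It was at 7.37, 11.5, 15.3 and 85.2 CPM in WT and at 10.6, 16.1, 46.1 and 16.9 CPM in TAZG197V. A single heart of each genotype, WT 4 and TAZG197V 3, lay well above the others, and no direction could be given. The log2 fold change was -0.20 with an interval from -1.71 to 1.32 (SE 0.66, adjusted p = 0.833, edgeR), and it was 0.92 without WT 4. Igf2, which encodes a growth factor and is expressed from the paternal chromosome, was likewise highest in these libraries, at 4.82 CPM in WT 4 and 2.36 CPM in TAZG197V 3 against 0.690 to 1.28 CPM in the other 6. WT 4 was also the library with the high red cell markers, 6 of 6 of which were called lower in TAZG197V against 15.1% of all genes, while TAZG197V 3 held them at 423 CPM. Without both number 4 libraries 5 of the 6 were called lower, against 7.98% of all genes, and their median log2 fold change went from -3.49 to -1.39. Over the 4 alternatives in which lists were counted, 0 to 6 of the 6 were called lower. The part of red cells in the H19 values was not tested.

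**Figure D4:**
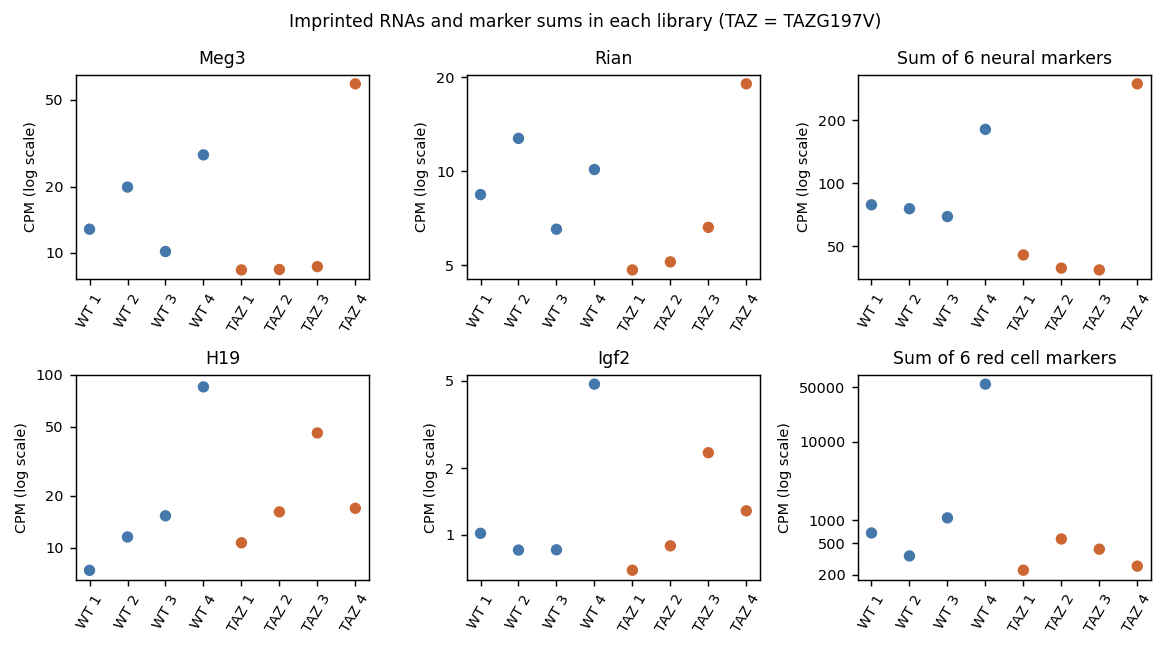
CPM of Meg3, Rian, H19 and Igf2 and the summed CPM of neural and red cell markers in each library, on log axes. Meg3, Rian and the neural markers are highest in TAZG197V 4, whereas H19, Igf2 and the red cell markers are highest in WT 4.

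An exon of H19 also holds the precursor of miR-675, the 2 mature strands of which are given from RefSeq (GRCm38.p6) with the seed, bases 2 to 8, in capitals, since this is the part of H19 that is known to be processed to a regulatory RNA.
mmu-miR-675-5p: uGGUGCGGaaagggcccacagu
mmu-miR-675-3p: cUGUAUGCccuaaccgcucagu
They lie at chr7:142577112-142577133 and chr7:142577078-142577099 on the minus strand. The Mir675 entry, all 84 bases of which lie in an H19 exon, had 0 counts in every library. How reads shared by both were treated is not given in the sources used here, so this says nothing of the amount of miR-675.

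Of 24 other lncRNAs studied in heart, 16 were tested, of which 3 were called higher and 3 lower, near the 18.5% and 15.1% of all genes. Pvt1, a neighbour of Myc, was at 0.947, 0.769, 0.932 and 0.536 CPM in WT and at 7.48, 7.07, 6.42 and 5.32 CPM in TAZG197V. Its log2 fold change of 3.05 (SE 0.17, adjusted p = 1.1e-05, edgeR) was larger than that of any member. Airn and Mhrt, the latter antisense to the cardiac myosin gene Myh7, had -0.59 and -0.43, and Mir22hg, the host of miR-22, had 0.55. Rmst and Trp53cor1 had mean counts of 12.3 and 12.7, below the minimum of 50, and could not be called, although the groups did not overlap. Rmst was lower in TAZG197V, at -2.18 (adjusted p = 0.00344, edgeR), and Trp53cor1 higher, at 2.21 (adjusted p = 0.0149). Both were named after their values were seen. Mhrt overlaps its coding partner on the other strand, so its counts are uncertain without strand.

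Levels were compared between the RNAs per kilobase of annotated exon. In WT, Malat1 was highest at 149 ± 45.4 CPM per kb, followed by Neat1 at 29.7 ± 1.51, H19 at 12.1 ± 15.1 and Gas5 at 8.42 ± 0.989 (SD, n = 4). The place of H19 came from WT 4, at 34.6 CPM per kb, and over WT 1 to 3 its mean was 4.63 CPM per kb and its highest 6.20 CPM per kb, with the mean below those of Gas5 and Epb41l4aos. Epb41l4aos was at 4.97 ± 0.367 CPM per kb, Snhg8 at 4.32 ± 0.741, Zfas1 at 2.93 ± 0.511, Snhg1 at 2.54 ± 0.244, Snhg12 at 1.99 ± 0.449 and Meg3 at 0.98 ± 0.442. In this order, Malat1 was apart from Neat1, and Gas5 from Epb41l4aos, in that their WT ranges did not overlap, and the ranges of all other neighbours did. For hosts with intron-retaining transcripts the exon length counts nearly the whole gene, 2969 bases in Snhg1 for example, which lowers the value per kilobase. The snoRNA entries and other small RNAs took 17.8% of the exon bases of Gas5, 20.9% of Snhg1 and 19.6% of Snhg12.

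Finally, for the members the genes with the nearest profile over the 8 libraries were sought, by the root mean square (RMS) difference of log2 CPM around each gene's mean. Gas5 was nearest to Tmbim1 and Cyb561d2, at RMS differences of 0.09 and 0.10, and Snhg1 to Tbcd and Eif4b, at 0.04 and 0.05. For Epb41l4aos these were Gng5 and Mrpl24, for Zfas1 Wdr35 and Dnttip1, and for Snhg8 Golga4 and Twf2. All of these were called higher in TAZG197V. The profiles include the genotype difference, so this was built into the search and is no separate result. Malat1 was nearest to Lncpint and Adam19, and Neat1 to Zdhhc16 and Strn3. The nearest to Meg3 were Brsk1 and Nsg1, and to H19 Isg15 and Igf2, the last at 0.44. The nearest member to Snhg8, Snhg12 and Epb41l4aos was Snhg1, at 0.15 to 0.17, whereas the nearest members to Meg3 and H19 were at 1.03 and 1.10.

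**Figure D5:**
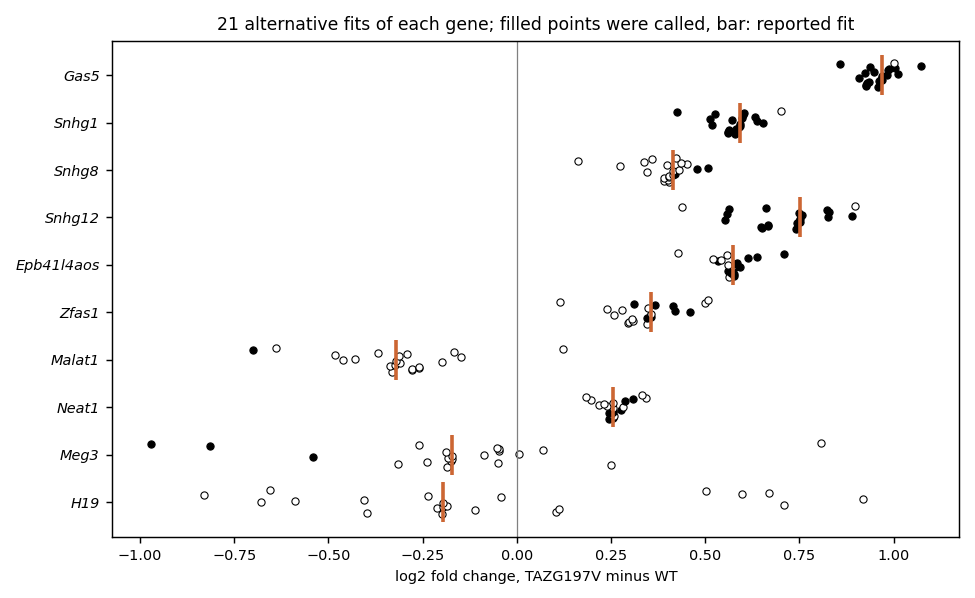
log2 fold change of each member in the reported fit (bar) and in 21 alternative fits (points, filled where called). The 6 hosts and Neat1 stay to the right of 0 in every fit shown, Gas5 from 0.86 to 1.07, whereas Meg3 and H19 lie on both sides.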

How the data were processed

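RNA from 8 hearts (500 ng per library) was sequenced with 50-base single-end reads. The authors mapped reads to mm10 with STAR 2.7.3a, allowing 2 mismatches, and counted those overlapping exons of each gene with featureCounts (Subread 2.0.0). The deposited values are raw counts, 1 file per mouse, with 23055689 to 36301031 counts per library. Strand setting, multi-mapped reads and reads shared by genes are not given in the sources used here. Counting error at 43 counts, the lowest of the members, is 15.2%.

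Counts were fitted in R 4.3.3 with edgeR 4.0.16 (filterByExpr, TMM, quasi-likelihood F-test) and 2 surrogate variables from svaseq (sva 3.50.0), with Benjamini-Hochberg adjustment over 15084 genes. CPM are TMM-scaled. A gene was called at an adjusted p below 0.05, a log2 fold change beyond 0.20 and a mean count of at least 50, the authors' thresholds. The authors used DESeq2, which was an alternative here (DESeq2 1.42.0). Other alternatives changed the surrogate variables, lane, block, scaling, filter, fold threshold and libraries. The fit was also run on simulated counts with the same dispersion for all genes and library effects balanced over genotype. Effects of a single library, as in WT 4, were not simulated, so that run does not vouch for the values here. p-values rest on the spread between mice that is left after the surrogate variables are fitted, not on the whole spread.

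The members and gene lists were chosen with earlier results of these data known. Named genes were all members, Taz, up to 4 called genes per list with the largest absolute log2 fold change, all other noncoding hosts and imprinted neighbours tested, the 2 nearest profiles per member (those of Snhg12 are not reported here), genes sharing exon bases or a promoter with a member, and markers beside a member. Symbols and positions are from GENCODE M21, promoters and miRNAs from RefSeq GRCm38.p6.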

Additional observations from a re-analysis of the deposited data

Results flagged for a closer look

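In groups of 4 libraries, a library was singled out where its gap to the nearest other exceeded Dixon's 95% critical share of the group's range. Of 74 groups examined, 16 held such a library, where chance gives about 1 in 20. Among the members these were Meg3 in TAZG197V 4, at 59.0 CPM against 8.36 to 8.65 CPM in the other 3, and H19 in WT 4, at 85.2 CPM against 7.37 to 15.3 CPM. TAZG197V 4 was also apart for Rian at 19.1 CPM, Mirg at 0.990 CPM, Snhg11 at 3.56 CPM and Snhg10 at 0.843 CPM. Igf2 was at 4.82 CPM in WT 4, and Mrpl23 was low in WT 1, at 1.29 CPM.

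Of the marker sums, the neural markers were high in WT 4 at 181 CPM and in TAZG197V 4 at 299 CPM, and the red cell markers in WT 4 at 55072 CPM. The fibroblast markers were high in WT 2 at 1463 CPM, the endothelial markers in WT 3 at 924 CPM and the macrophage markers in TAZG197V 3 at 209 CPM. The adipocyte markers were at 20.97 CPM in WT 2 and at 3.56 CPM in TAZG197V 4. The part of these cell types in the values of the members was not tested.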

How the results depend on the processing

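The 6 snoRNA hosts and Neat1 kept their direction in all 21 alternatives, and Gas5 and Snhg1 were called in 20 of them. With a fold change of at least 1.5, 3 members and 1843 genes were called, and Taz, at -0.37, no longer passed. Lane 8 alone gave 0 members, 45 genes and a Taz log2 fold change of -0.42 that was not called. Without both number 4 libraries, 2649 genes and 26 further list members were called. With 1 library left out, 3 to 7 members, 3675 to 5243 genes and 42 to 53 further list members were called, against 6, 5060 and 50, and the log2 fold change ran from -0.81 to 0.069 for Meg3 and from -0.83 to 0.92 for H19. Meg3 was 0.25 without surrogate variables and 0.81 in lane 8 alone. H19 was 0.10 with 1 surrogate variable, 0.71 without the low-count filter, 0.67 without both number 4 libraries and 0.50 in lane 7 alone, and Malat1 was 0.12 there. The lncRNAs near the threshold, Epb41l4aos, Zfas1 and Neat1, lost their call in 7, 13 and 13 alternatives. The cause was not tested.

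The deviations of libraries that share numbers 1 to 4 correlated at 0.277, 0.0436, 0.280 and 0.416. Since pairing was taken to need a correlation over 0.1 in every pair and number 2 fell short, the reported fit has no block. A replicate block gave 4 members and 4272 genes called, Zfas1 and Neat1 losing their call with an adjusted p of 0.0908 and 0.0595, and an H19 log2 fold change of 0.11. With this block 0 of the 6 red cell markers were called lower, at a median log2 fold change of -1.85, and 1 of the 5 fibroblast markers. Depth limits Epb41l4aos most, with 43 to 136 counts. The H19 level per kilobase without WT 4 was chosen after seeing the data.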
